A study of Mus musculus with 6 samples.

Results

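The genes described here are 10 members of the YAP/TAZ-TEAD pathway: the coactivator genes Yap1 and Wwtr1, the TEAD transcription factor genes Tead1 and Tead2, the regulators Lats2, Amotl2 and Ajuba, and the targets Ccn1, Ccn2 and Ankrd1. They were taken by symbol from a table of 40413 genes, and all 10 were found there. RNA was sequenced from N2A-A5 cells, which the submitters term acceptor cells. Neuro-2a, or N2A, is an established line from a mouse neuroblastoma. At 0 h, 3 of the 6 libraries were made from undifferentiated cells grown in 10% fetal bovine serum with 10 µg/mL blasticidin. The other 3 came from cells differentiated for 96 h in 1% serum with 10 µM retinoic acid and no blasticidin. All samples are of one cell line. Serum, retinoic acid, blasticidin and time changed together and cannot be told apart. The design text calls the libraries biological replicates. Whether they came from separate cultures is not given in the sources used here, so p-values measure the spread between these libraries.

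YAP (from Yap1) and TAZ (from Wwtr1) are paralogous coactivators that do not bind DNA themselves. In the nucleus they join TEAD factors, which recognise a short DNA element, and switch on genes of growth, matrix and cytoskeleton. Hippo kinases, with LATS1 and LATS2 as the last step, phosphorylate both coactivators and keep them in the cytoplasm. Cell contact, stretch of the actin cytoskeleton and lipids in serum all act on this step. In the nervous system the pathway is known for its activity in progenitors and glia and its low activity in many neurons.

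The sequences upstream of the 3 targets and feedback genes that fell, and of Wwtr1, are shown because the TEAD element is the point at which the coactivators and their target genes meet. They are RefSeq windows of build GRCm38.p6, cut to the 250 bases before the start site and printed 5′ to 3′ on the gene's strand. Capitals mark GGAATG, the core letters of the TEAD element, or their reverse complement CATTCC.

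Ccn1, minus strand, chr3:145649986-145650235: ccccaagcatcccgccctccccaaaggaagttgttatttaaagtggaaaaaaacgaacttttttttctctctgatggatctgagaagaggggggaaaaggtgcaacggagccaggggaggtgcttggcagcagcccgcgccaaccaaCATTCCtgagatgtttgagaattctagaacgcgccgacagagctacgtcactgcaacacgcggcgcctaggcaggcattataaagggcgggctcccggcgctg
Ankrd1, minus strand, chr19:36119845-36120094: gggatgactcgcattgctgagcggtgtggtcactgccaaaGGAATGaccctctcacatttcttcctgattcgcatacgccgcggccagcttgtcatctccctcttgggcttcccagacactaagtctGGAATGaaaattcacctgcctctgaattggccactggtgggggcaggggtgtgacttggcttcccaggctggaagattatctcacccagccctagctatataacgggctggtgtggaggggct
Amotl2, plus strand, chr9:102717554-102717803: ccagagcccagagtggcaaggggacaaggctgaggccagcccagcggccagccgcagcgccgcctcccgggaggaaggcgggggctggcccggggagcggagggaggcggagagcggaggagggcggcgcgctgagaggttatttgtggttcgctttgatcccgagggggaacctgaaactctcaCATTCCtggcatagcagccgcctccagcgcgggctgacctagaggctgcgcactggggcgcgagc
Wwtr1, minus strand, chr3:57575911-57576160: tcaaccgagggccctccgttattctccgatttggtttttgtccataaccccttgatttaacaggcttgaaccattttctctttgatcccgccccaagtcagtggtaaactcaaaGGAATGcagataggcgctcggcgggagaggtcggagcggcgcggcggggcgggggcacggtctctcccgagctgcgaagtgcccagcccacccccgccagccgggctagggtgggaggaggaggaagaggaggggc

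With base -1 next to the start site, the element letters begin at -103 in Ccn1, at -210 and -123 in Ankrd1, at -65 in Amotl2 and at -136 in Wwtr1. RefSeq windows were matched for 8 of the 10 genes (10 windows, searched on both strands), not for Tead1 and Ccn2. The letters lay in the windows of 6 of these 8 genes. Yap1 held them at -141 and Ajuba at -186 and -164, and the windows of Tead2 and Lats2 held none. Over all 27025 genes with a window of the same length, 14.4% held the letters. No window of the 8 genes held the AP-1 letters TGACTCA or TGAGTCA, or an SRF CArG box, which 5.16% and 1.62% of all genes held. At shares this low, the absence of a match among 8 genes says little. A match of letters is a description and not a bound site. Among genes tested for expression, 27.8% of the 1313 with the letters were lower at 96 h against 31.4% of the 8839 without them, and the share was not higher with the letters.

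**Figure D1:**
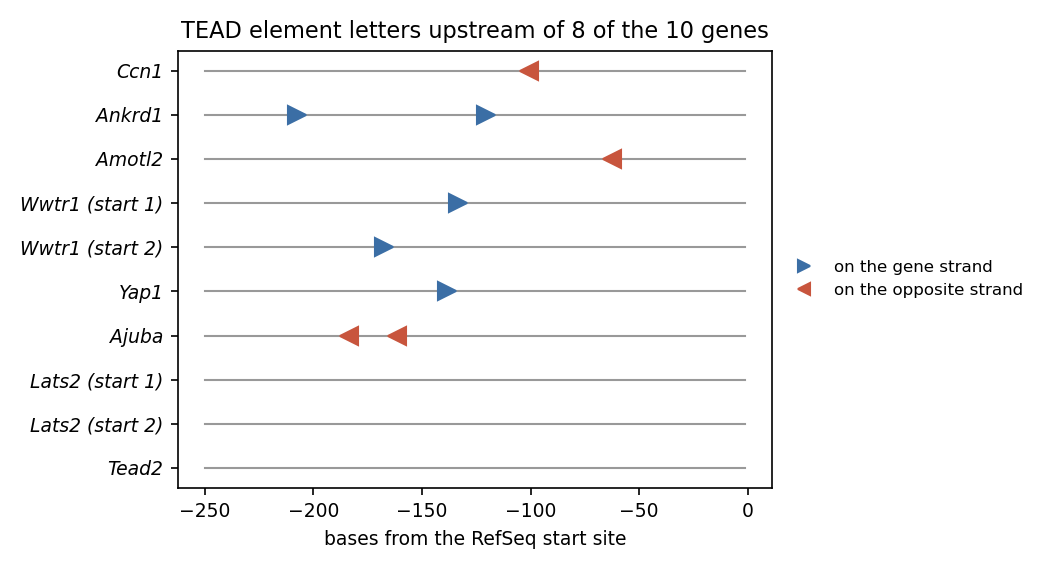
Position of the TEAD element letters in the 250 bases before each RefSeq start site of 8 of the 10 genes (horizontal axis, bases from the start site); triangles point along the strand that reads GGAATG. Ankrd1 and Ajuba carry 2 matches each, Ccn1, Amotl2, Yap1 and Wwtr1 carry 1 (both Wwtr1 starts share it), and Tead2 and Lats2 carry none.

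Library totals ran from 16.8 M to 20.9 M estimated counts (M for mega). The predicted gene Gm26917 took between 18.7% and 22.7% of counts at 0 h and between 28.7% and 31.7% at 96 h. Levels are given as CPM, depth-scaled counts (each count over the TMM-scaled library size, per mega of counts), and directions are relative to that scale. The summed level of 10 adrenergic neuroblast markers was 850 to 881 CPM at 0 h and 541 to 554 CPM at 96 h. Most of it came from Hand2 (means 381 and 311 CPM) and Gata2 (240 and 70.1 CPM). Of the 9 tested, 7 were lower (77.8%, against 28.8% of all tested genes) and 0 higher (against 28.7%). Gata3 (log2 fold change 0.18) and Th (-0.14) did not pass. Endothelial and immune markers summed to at most 2.63 CPM in any library, and Ptprc had 0 counts at 0 h and 3 at 96 h. Among 13 mesenchymal and fibroblast markers, Col3a1 and Lum had 0 counts in all libraries. The summed level of that list was 1560 to 1655 CPM at 0 h and 949 to 955 CPM at 96 h, most of it from Vim and Fn1. Of the 6 tested markers of that list 3 were higher (50%, against 28.7% of all tested genes) and 2 lower (33.3%, against 28.8%). Pdgfrb (log2 fold change 2.11), Pdgfra (1.62) and Dcn (0.99) were higher, and Fn1 (-1.48) and Vim (-0.66) were lower. Schwann and glial markers summed to 2.92 to 5.16 CPM at 0 h and 9.32 to 10.7 CPM at 96 h. The part of these shifts in the results below was not tested.

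These N2A-A5 cells carried TAZ mRNA and almost no YAP mRNA, with Tead1 as the main TEAD gene. By 96 h Wwtr1, Tead1, Amotl2, Ccn1 and Ankrd1 had all fallen, to between 25.6% (Ankrd1) and 71.3% (Tead1) of the 0 h level. Low-count filtering removed Yap1, Tead2, Ccn2 and Ajuba, and 6 of the 10 genes were tested. Exons of Yap1, Lats2 and Ccn2 overlap those of a predicted gene in GENCODE M21, which leaves their counts uncertain. The gene over Ccn2, Gm15270, averaged 0 CPM at 0 h and 0.022 CPM at 96 h. Those over Yap1 and Lats2 had no value. Of the 6 members tested, 5 were lower at an adjusted p under 0.05 in edgeR's quasi-likelihood test, where 28.8% of the 13705 tested genes were lower. None was higher (0 at an unadjusted p under 0.05, and 0 by limma-voom or DESeq2), against 28.7% of all tested genes. At least 2-fold lower were 2 of the 6, Amotl2 and Ankrd1, where 3.77% of tested genes were. All 5 genes called had every 96 h library below every 0 h library, as did 31.7% of tested genes. The call and this separation rest on the same libraries, so the separation is no separate evidence. The median log2 fold change was -0.87 over the 6 tested members and 0.03 over all tested genes. Ankrd1 passed the filter through its 0 h libraries, so its place among the tested genes already depended on a high 0 h level. In bulk RNA, fewer cells expressing a gene and less RNA per cell cannot be told apart.

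**Figure D2:**
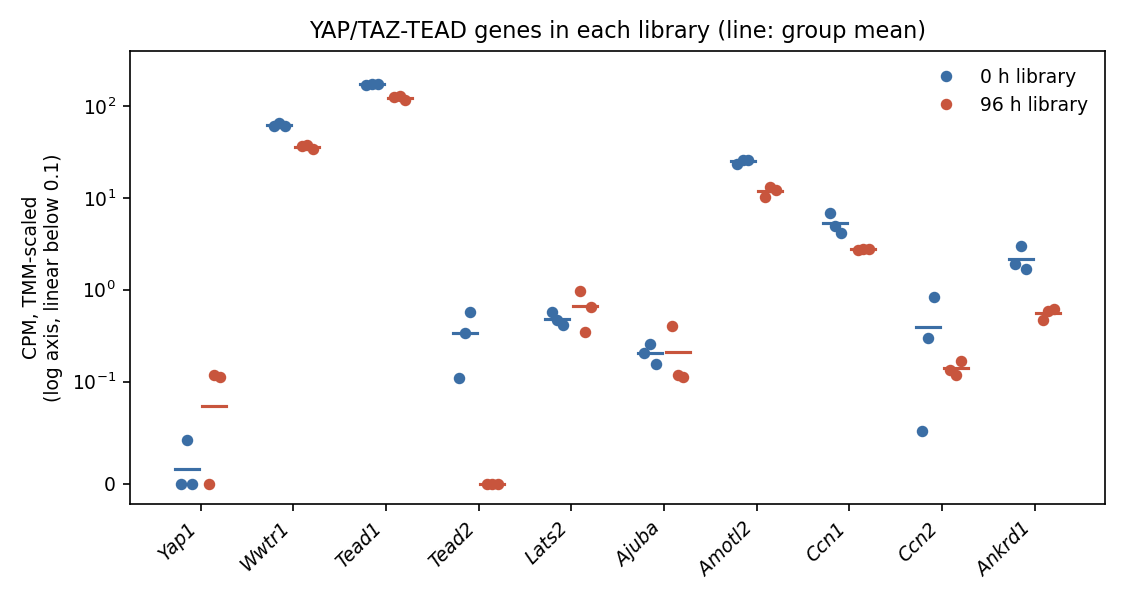
CPM of each of the 10 genes (vertical axis, log scale that is linear below 0.1) in the 3 libraries at 0 h and the 3 at 96 h, with the group means as lines. Wwtr1, Tead1, Amotl2, Ccn1 and Ankrd1 separate by time, Tead2 is at 0 in all 96 h libraries, and Yap1 stays near 0 throughout.

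Among the coactivators, Wwtr1 carried nearly all of the signal. Wwtr1 measured 61.4, 64.7 and 61.4 CPM in the 0 h libraries (replicates 1, 2 and 3) and 36.8, 37.7 and 33.9 CPM at 96 h. The groups did not overlap, and each varied little. The means were 62.5 ± 1.9 and 36.1 ± 2.0 CPM (SD, n = 3 each), a 1.73-fold fall (log2 fold change -0.79 ± 0.06, SE, edgeR adjusted p = 1.56e-07). Of all tested genes, 6.87% had a log2 fold change as low or lower.

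Yap1 was almost silent in both states. Its 0 h libraries held 0, 1 and 0 counts and its 96 h libraries 0, 2 and 2 (rounded estimates). At 0 h Yap1 gave 1 of the 3884 counts of the pair Yap1 and Wwtr1, or 0.0257% (exact 95% binomial interval 0.000652% to 0.143%), and at 96 h 4 of 1810, or 0.221% (0.0602% to 0.565%). These intervals cover counting error only. The depth-scaled ratio of Yap1 counts, 96 h over 0 h, was 4.95 with an exact 95% conditional interval of 0.490 to 244, so no change was detectable at this depth. Without the low-count filter Yap1 did not pass (edgeR adjusted p = 0.506, where 31.3% of 26399 genes passed in either direction). The log2 ratio of Wwtr1 to Yap1 within a library, with 0.5 added to each count, was 10.8 ± 0.71 at 0 h and 8.68 ± 1.2 at 96 h (exact two-sided permutation p = 0.2, where the design allows no less than 0.1). That ratio rests on the few Yap1 counts, and its shift of -2.12 became -1.57 with 2 added to each count.

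Tead1 was the most abundant of the 10 genes per kb of transcript in both states. Its libraries held 169, 176 and 172 CPM at 0 h and 124, 129 and 115 CPM at 96 h. Every 96 h library was lower, and the means of 172 ± 3.5 and 123 ± 7.2 CPM gave the smallest fall of the 5 genes called, 1.40-fold (log2 fold change -0.49 ± 0.05, edgeR adjusted p = 2.50e-06). As low or lower a log2 fold change was seen in 16.8% of tested genes. Wwtr1 fell further than Tead1: the log2 ratio of Wwtr1 to Tead1 was -1.46 ± 0.02 at 0 h and -1.77 ± 0.01 at 96 h. The 0 h and 96 h libraries stood apart (exact permutation p = 0.1, the least this design allows, and 0.16 after Benjamini-Hochberg adjustment over the 8 ratios computed).

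Tead2 was a trace transcript at 0 h that was not seen at 96 h. It had 2.14, 8 and 11 estimated counts at 0 h and 0 counts in all 3 libraries at 96 h. With a floor of 3 counts set over the 96 h group, Tead2 was 5.66-fold lower, a figure that depends on that floor. The lower limit of its exact 95% conditional interval was 4.21-fold, which covers counting error only. Tead2 was removed by the low-count filter. Exons of Cd37 overlap Tead2 on the opposite strand and the strand setting is unknown. Cd37 averaged 0.028 CPM at 0 h and 0 CPM at 96 h. Without the low-count filter Tead2 passed (edgeR adjusted p = 0.00287, where 15.8% of genes were lower), and it passed in DESeq2's Wald test (adjusted p = 0.0127). Tead2 gave 0.196% of the summed Tead1 and Tead2 counts at 0 h (exact 95% interval 0.121% to 0.299%) and 0% at 96 h, where 0 of 6146 counts allow up to 0.0488% by the floor of 3 counts and 0.0600% by the exact 95% interval. The within-library log2 ratio of Tead1 to Tead2 was 9.12 ± 1.1 at 0 h and 12.0 ± 0.12 at 96 h (exact permutation p = 0.1, adjusted 0.16). With no Tead2 counts at 96 h, its size is set by the count added: the shift was 2.88 with 0.5 added and 1.23 with 2.

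The TEAD family as a whole was mostly Tead1. Per kb of the longest coding transcript, Tead1 made up 89.4% ± 1.2 of the summed Tead1 to Tead4 level at 0 h and 87.1% ± 4.9 at 96 h (SD, n = 3). Tead3 made up 9.56% ± 0.94 and 11.9% ± 4.9, and Tead4 0.523% ± 0.25 and 0.999% ± 0.24. Tead3 did not pass (log2 fold change -0.09 ± 0.29, edgeR adjusted p = 0.815). Its 96 h libraries held 3.20, 7.70 and 3.55 CPM, and without the highest of them, 96 h replicate 2, it was lower (-0.61, adjusted p = 0.0462). Vgll4, a cofactor that competes with YAP and TAZ for TEAD factors, fell (log2 fold change -0.78 ± 0.10, edgeR adjusted p = 1.49e-05). Of 10 nuclear factors and cofactors 4 were tested, 3 were lower (Wwtr1, Tead1 and Vgll4) and 0 higher, where 28.8% and 28.7% of all tested genes were. Apart from Wwtr1 and Tead1, that leaves 1 lower of 2 tested. Vgll2 had 0 counts in all libraries.

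Amotl2, Lats2 and Ajuba act upstream of the coactivators, and Amotl2 and Lats2 are also feedback targets of YAP and TAZ. Amotl2, an angiomotin-family protein that holds the coactivators at junctions, measured 23.4, 26.1 and 25.8 CPM at 0 h and 10.2, 13.2 and 12.2 CPM at 96 h. The groups were well apart, at 25.1 ± 1.5 and 11.9 ± 1.5 CPM, a 2.11-fold fall (log2 fold change -1.07 ± 0.10, edgeR adjusted p = 9.20e-07). Only 3.47% of tested genes fell as far. The log2 ratio of Amotl2 to Wwtr1 went from -1.32 ± 0.07 to -1.61 ± 0.21 without overlap (exact permutation p = 0.1, adjusted 0.16).

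Lats2, the kinase gene that responds to YAP and TAZ, was near the detection limit. It measured 0.568, 0.467 and 0.418 CPM at 0 h and 0.972, 0.348 and 0.655 CPM at 96 h, or 30 and 32 counts in all. The groups overlapped. The log2 fold change of 0.45 had an interval of -0.56 to 1.47 (normal 95% interval from the SE, edgeR adjusted p = 0.476), which holds both a fall and a rise of more than 1.4-fold. Its paralogue Lats1 carried the LATS signal, with 10.9 ± 0.67 CPM per kb at 0 h against 0.0933 ± 0.015 for Lats2. Lats1 fell slightly (log2 fold change -0.24 ± 0.06, edgeR adjusted p = 0.00478).

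Ajuba, a LIM-domain scaffold that inhibits LATS kinases, had fewer counts than Lats2. It had 4, 6 and 3 counts at 0 h and 6, 2 and 2 (rounded) at 96 h. The depth-scaled ratio was 0.952 (exact 95% conditional interval 0.374 to 2.35), and no change was detectable at this depth (edgeR adjusted p = 0.970 without the filter). The related LIM protein genes were higher per kb. Limd1 had 4.14 ± 0.28 CPM per kb at 0 h and 3.29 ± 0.14 at 96 h and fell (log2 fold change -0.34 ± 0.09, edgeR adjusted p = 0.00551). Wtip, at 1.72 ± 0.14 and 1.12 ± 0.39 CPM per kb, did not pass (-0.62 ± 0.29, edgeR adjusted p = 0.0816), though it did with library size only (0.0199).

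The angiomotin genes moved in opposite directions. Amotl1 measured 1.24, 0.681 and 1.41 CPM at 0 h and 8.66, 12.4 and 11.0 CPM at 96 h. It rose 9.75-fold (log2 fold change 3.28 ± 0.26, edgeR adjusted p = 1.35e-07) while Amotl2 fell. The log2 ratio of Amotl1 to Amotl2 went from -4.53 ± 0.59 to -0.16 ± 0.07 (exact permutation p = 0.1, adjusted 0.16). Per kb, Amotl2 nevertheless stayed ahead, with 5.80 ± 0.34 CPM per kb at 0 h and 2.75 ± 0.36 at 96 h against 0.124 ± 0.043 and 1.19 ± 0.21 for Amotl1. Amot itself was low (0.504 ± 0.32 and 0.786 ± 0.24 CPM) and did not pass (0.65 ± 0.54, edgeR adjusted p = 0.324).

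**Figure D3:**
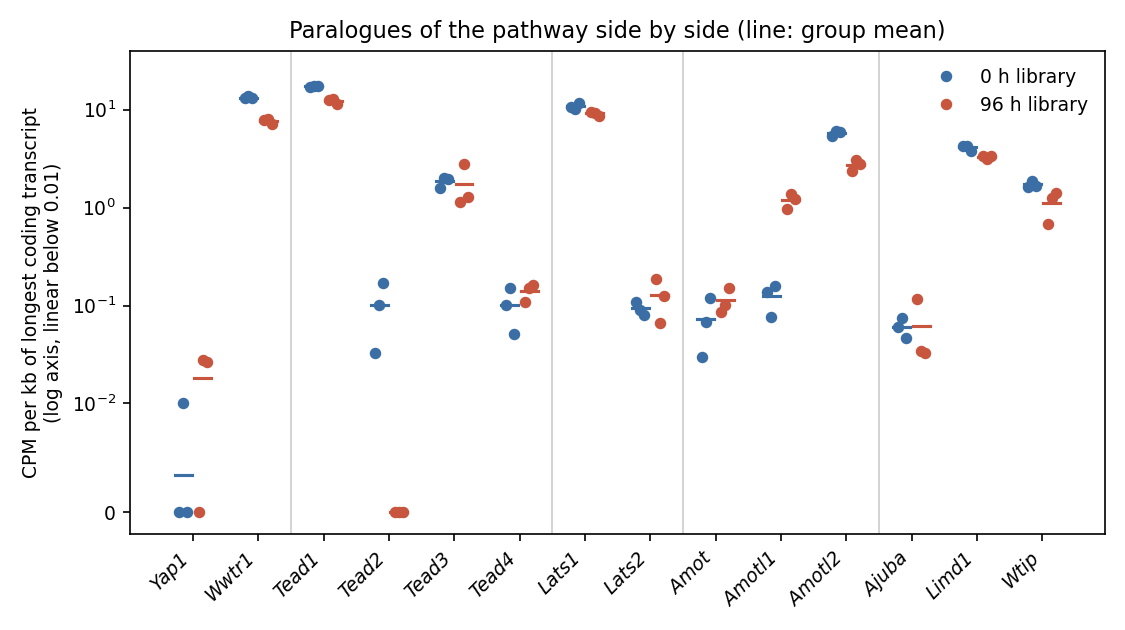
CPM per kb of the longest coding transcript (vertical axis, log scale that is linear below 0.01) for paralogue groups of the pathway in each library, with group means as lines. Wwtr1, Tead1, Lats1 and Limd1 stand far above Yap1, Tead2, Lats2 and Ajuba at both times, and Amotl1 rises toward Amotl2 at 96 h.

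Of the 3 direct targets, Ankrd1 and Ccn1 fell and Ccn2 was too sparse to be tested with the filter. Ankrd1 encodes a nuclear ankyrin-repeat protein known from stretched muscle and is among the most used readouts of YAP and TAZ. It measured 1.91, 2.98 and 1.67 CPM at 0 h and 0.466, 0.584 and 0.612 CPM at 96 h. All 96 h libraries were far below all 0 h libraries. The means of 2.19 ± 0.70 and 0.554 ± 0.078 CPM differed 3.91-fold (log2 fold change -1.97 ± 0.39, edgeR adjusted p = 6.46e-04) and rested on 139 and 28 counts. Only 0.693% of tested genes fell as far, though Ankrd1 was among them through its 0 h libraries, as stated above. The log2 ratio of Ankrd1 to Wwtr1 went from -4.86 ± 0.39 to -5.96 ± 0.24 without overlap (exact permutation p = 0.1, adjusted 0.16).

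Ccn1 encodes CYR61, a secreted matricellular protein. It measured 6.88, 4.90 and 4.18 CPM at 0 h and 2.73, 2.74 and 2.78 CPM at 96 h. The 0 h libraries were spread and the 96 h libraries were nearly equal, with no overlap. The means were 5.32 ± 1.4 and 2.75 ± 0.03 CPM, a 1.93-fold fall (log2 fold change -0.95 ± 0.23, edgeR adjusted p = 0.00341). Relative to Wwtr1, Ccn1 showed no detectable shift: the log2 ratio was -3.58 ± 0.38 at 0 h and -3.70 ± 0.09 at 96 h (exact permutation p = 0.8). The difference of -0.12 changed sign without 0 h replicate 1 (0.10).

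Ccn2 encodes CTGF, the matricellular protein closest to CYR61 in use as a readout. It had 1, 7 and 16 counts at 0 h and 2, 2 and 3 at 96 h. The 0 h libraries ran from below the 96 h libraries to well above them. In pooled counts Ccn2 was lower at 96 h by a depth-scaled ratio of 0.361 (exact 95% conditional interval 0.131 to 0.863, counting error only). Over the libraries it did not pass without the filter (edgeR adjusted p = 0.265, DESeq2 adjusted p = 0.315). The log2 ratio of Ccn1 to Ccn2 was 4.24 ± 2.1 at 0 h and 4.05 ± 0.20 at 96 h (exact permutation p = 0.9).

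Other genes of the 2 target families did not move as a block. Of 9 CCN and muscle ankyrin repeat genes 4 were tested, 2 fell (Ccn1 and Ankrd1, both described above) and 1 rose, where 28.8% and 28.7% of all tested genes did. Apart from those, 0 fell and 1 rose of 2 tested. The one that rose was Ccn4, which encodes WISP1, a secreted protein known as a Wnt target. It measured 15.03 ± 2.5 CPM at 0 h and 31.3 ± 2.6 CPM at 96 h (log2 fold change 1.06 ± 0.11, edgeR adjusted p = 2.81e-06). Ankrd23 did not pass (1.29 ± 0.75, adjusted p = 0.160, and 2.64 with adjusted p = 0.0364 without 0 h replicate 2). Ccn3, Ccn5 and Ccn6 had at most 21 counts in a group. Ankrd2, with no count at 0 h and 10 counts at 96 h, passed without the filter (edgeR adjusted p = 0.0321, where 31.3% of 26399 genes passed in either direction). In DESeq2's Wald test, also run without that filter, only 1 gene of the list was higher. Ccn5 went the other way, from 21 counts to 4, and did not pass without the filter (edgeR adjusted p = 0.145).

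Per kb of transcript, the order of the 10 genes was the same at both times for the 5 most abundant: Tead1, Wwtr1, Amotl2, Ccn1 and Ankrd1. Their levels at 0 h were 17.3, 13.3, 5.80, 2.64 and 1.08 CPM per kb, and at 96 h 12.3, 7.69, 2.75, 1.36 and 0.274. Neighbours in this order did not overlap between libraries at either time. Among the lower genes, Ccn2, Tead2 and Lats2 overlapped with their neighbours at 0 h, as did Lats2, Ajuba and Ccn2, and Yap1 and Tead2, at 96 h. Wwtr1 ranked above 83.4% of protein-coding genes per kb at 0 h and 74.9% at 96 h, and Tead1 above 87.2% and 83.4%. These levels depend on the transcript length chosen, which was the longest coding transcript of GENCODE M21.

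The wider target signature was mixed. This published list holds 22 conserved YAP and TAZ targets, Amotl2, Lats2, Ccn1, Ccn2 and Ankrd1 among them. Of 17 tested, 8 were lower (47.1%, against 28.8% of all tested genes) and 4 higher (23.5%, against 28.7%), with a median log2 fold change of -0.31. Ankrd1 and Axl, both counted as lower, passed the low-count filter through their 0 h libraries. Their place among the tested genes thus depended on a high 0 h level. Axl, named for this reason, measured 2.27 ± 0.27 CPM at 0 h and 0.515 ± 0.11 CPM at 96 h. Among the 13 tested genes that are not of the 10 described, 5 were lower and 4 higher, with a median of 0.23. Tgfb2, a TGF-beta ligand, fell from 70.9 ± 1.9 to 28.6 ± 3.9 CPM (log2 fold change -1.31 ± 0.08) and Rbms3, an RNA-binding protein, from 105 ± 4.9 to 57.4 ± 2.5 CPM (-0.88 ± 0.06). Gadd45a, a growth-arrest gene that is also a target of p53 and of stress factors, rose from 4.02 ± 0.65 to 24.4 ± 2.6 CPM (2.60 ± 0.14). Crim1, a transmembrane protein that binds BMPs, rose (1.75 ± 0.36), as did Ptpn14 (1.99 ± 0.59, from 15 counts to 48), a phosphatase that restrains YAP. Ptpn14 passed the low-count filter through its 96 h libraries. Its log2 fold change was 2.81 without 0 h replicate 2 and 1.54 without 0 h replicate 1, and its adjusted p reached 0.0497 without 96 h replicate 3. The remaining higher gene, Arhgef17, was named after its value was seen and had a log2 fold change of 0.25 ± 0.09 (edgeR adjusted p = 0.0373). Its call was lost in DESeq2 (0.201), without the filter (0.168), with limma-voom (0.0502), with the replicate block (0.0581), with library size only (0.978, with a log2 fold change just below 0) and when any library except 96 h replicate 2 was left out. Igfbp3 had 0 counts at 0 h and 2 at 96 h.

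**Figure D4:**
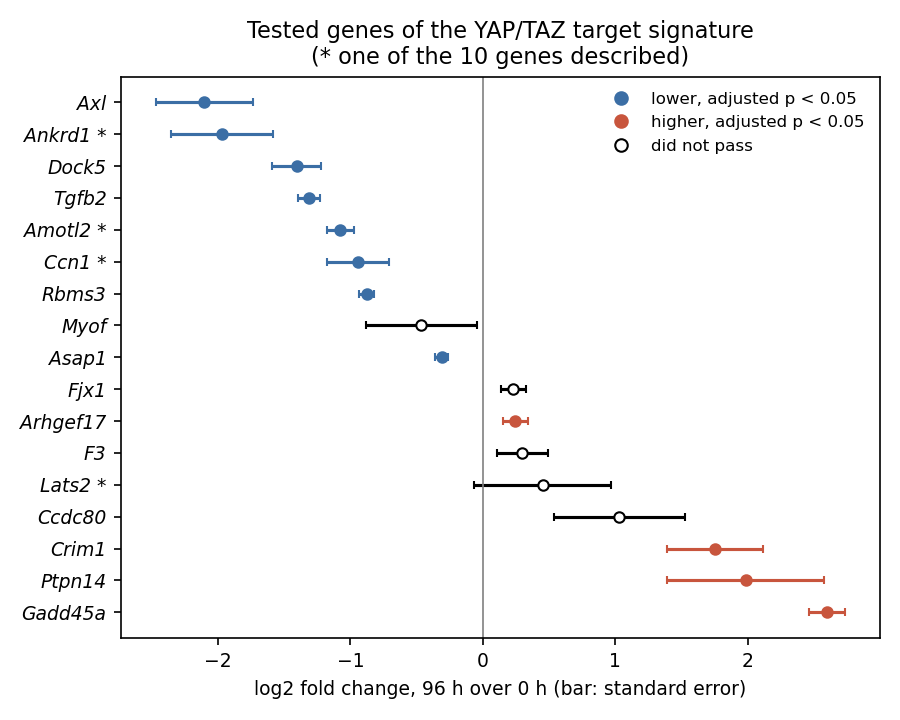
Log2 fold change, 96 h over 0 h (horizontal axis, bars are standard errors), of the 17 tested genes of the target signature. Filled points passed at an adjusted p under 0.05, 8 below 0 and 4 above, and open points did not.

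Hippo kinases and adaptors were lower or did not pass. Of 15 genes, all tested, 8 were lower (53.3%, against 28.8% of all tested genes) and 0 higher (0 at an unadjusted p under 0.05, 0 by limma-voom or DESeq2, and 1 with upper-quartile factors, Wwc1). Wwc2, an adaptor that activates LATS, fell from 211 ± 1.3 to 108 ± 4.0 CPM (log2 fold change -0.96 ± 0.05). Map4k4 (-0.42 ± 0.04) and Taok1 (-0.41 ± 0.05), upstream kinases, fell by less. The core kinase gene Stk4 fell (-0.46 ± 0.07, edgeR adjusted p = 5.24e-05). The core genes Stk3 (-0.15 ± 0.06, edgeR adjusted p = 0.0593), Sav1 (-0.02 ± 0.18), Mob1a (-0.10 ± 0.07) and Mob1b (-0.20 ± 0.13) did not pass. Leaving out 0 h replicate 1 brought Stk3 past the threshold (0.0398), as did leaving out 96 h replicate 3 (0.0468). Stk3 also passed without the low-count filter (edgeR adjusted p = 0.0364), and 9 genes of the list were then lower in place of 8. With library size only, Stk3 (adjusted p = 3.50e-04), Mob1a (0.00284) and Mob1b (0.0135) passed as lower, and 12 genes of the list were lower in place of 8. These 5 core genes were named after their values were seen.

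Junction and polarity genes fell in 9 of 17 tested (52.9%, against 28.8% of all tested genes) and rose in 3 (17.6%, against 28.7%). Without Amotl2, already counted above, 8 of 16 fell. Tjp1, the tight-junction scaffold ZO-1, fell from 220 ± 3.7 to 89.2 ± 4.1 CPM (log2 fold change -1.30 ± 0.05), Fat1, a giant cadherin, by 1.21 on the log2 scale, and Ctnna1, alpha-catenin, by 0.81. Amotl1 and Ptpn14 rose, as above. Dchs1, a protocadherin that binds FAT4, had 0.25 ± 0.08 (edgeR adjusted p = 0.0145). The call of Dchs1 was lost with library size only (adjusted p = 0.966) and after removal of 0 h replicate 1 (0.0503), of 0 h replicate 2 (0.0935) and of 96 h replicate 1 (0.0846).

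**Figure D5:**
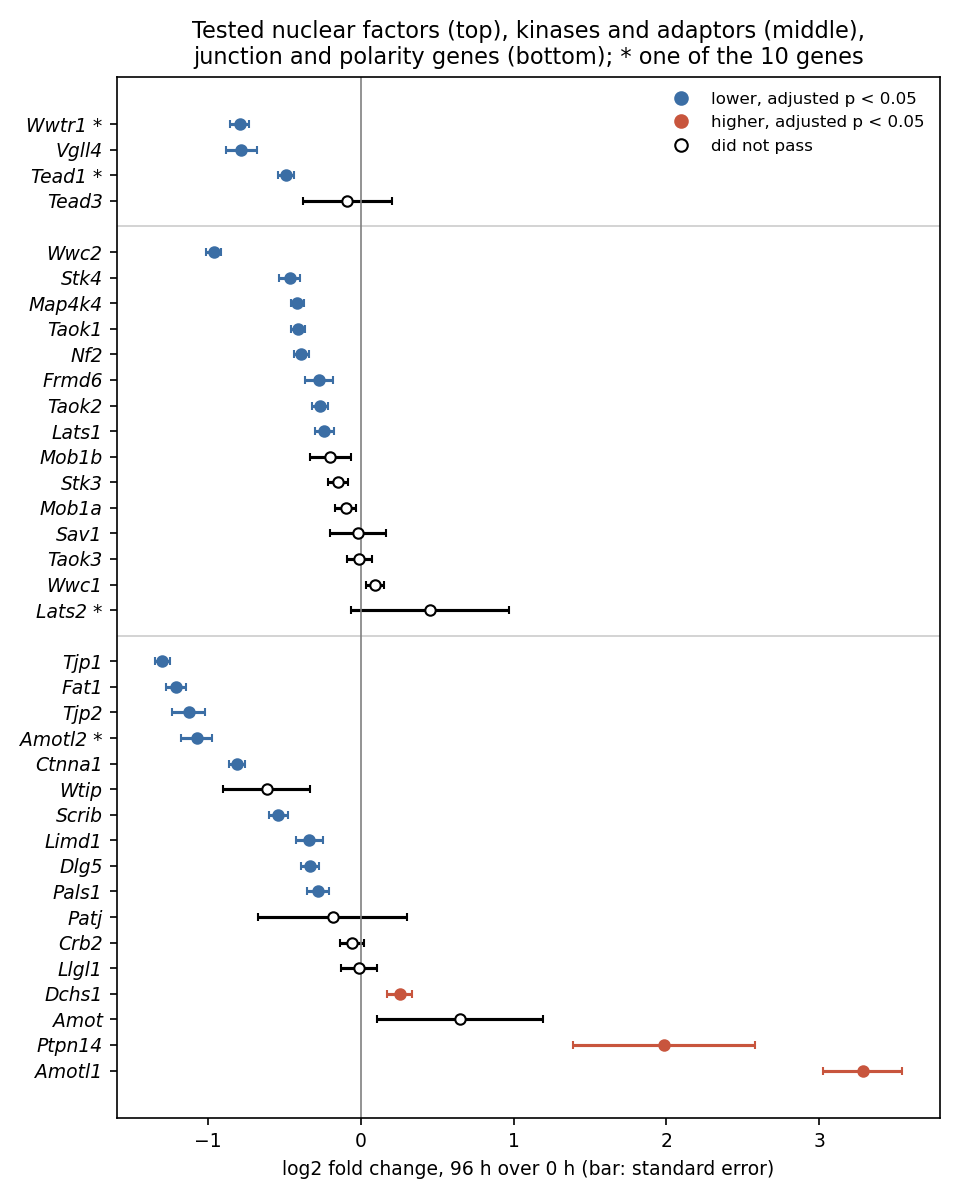
Log2 fold change, 96 h over 0 h (horizontal axis, bars are standard errors), of tested nuclear factors, Hippo kinases and adaptors, and junction and polarity genes; filled points passed at an adjusted p under 0.05. Most filled points lie below 0, with Amotl1, Ptpn14 and Dchs1 above it.

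The falls of the 5 genes called were as large without Gm26917 and structural RNA. In a fit that left out Gm26917 together with the rRNA, snRNA and mitochondrially encoded genes, the log2 fold changes were -0.79 for Wwtr1, -0.49 for Tead1, -1.08 for Amotl2, -0.95 for Ccn1 and -1.97 for Ankrd1. With scaling by library size only, which shifted the median of all genes by -0.25, they were -1.04, -0.74, -1.32, -1.20 and -2.22.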

How the data were processed

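Gene expression was measured by RNA sequencing of ribosomal-RNA-depleted total RNA in 6 libraries. The authors deposited estimated counts (expected counts, not whole, not normalised) per gene symbol. FastQC 0.12.1, Salmon 1.10.1 and DESeq2 1.52.0 with build mm39 are named per the submitters' processing notes, with roles, annotation and strand setting not given in the sources used here.

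Counts were rounded and filtered with filterByExpr (about 0.540 CPM in 3 libraries), leaving 13705 genes. They were scaled with TMM and compared with edgeR 4.0.16 (R 4.3.3) by the quasi-likelihood F test, with Benjamini-Hochberg adjustment over all genes tested and a threshold of 0.05. The standard error is the log2 fold change divided by the square root of F. The test was checked on simulated data in which a far smaller share of genes changed than was called here. Within-library ratios used exact two-sided permutation tests. DESeq2 1.42.0, limma-voom (limma 3.58.1), other scalings and filters, and left-out libraries were alternatives.

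The members and gene lists were chosen with earlier results of these data known. One further gene list is not reported here. The text names the 10 members, their paralogues, and per list up to 3 rising and 3 falling genes that passed with the smallest adjusted p. Ratios other than Wwtr1 to Yap1, Tead1 to Tead2 and Ccn1 to Ccn2 were added after seeing the data. Transcript lengths came from GENCODE M21 and promoters from RefSeq (GRCm38.p6), matched by symbol. In that annotation, exons of Yap1, Tead2, Ccn2 and Lats2 overlap those of another gene, so their few counts are uncertain. Libraries of a group differed beyond sampling noise (chi-square per degree of freedom 6.32 to 12.9) and each was counted once.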

Additional observations from a re-analysis of the deposited data

How the results depend on the processing

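Wwtr1, Tead1, Amotl2, Ccn1 and Ankrd1 kept their fall and passed the threshold in each of the 16 alternatives. Their log2 fold changes ranged from -1.04 to -0.71, -0.74 to -0.41, -1.32 to -0.99, -1.20 to -0.73 and -2.22 to -1.68, and the largest adjusted p was 0.0231 (Ccn1 without 0 h replicate 1). Of the 10 members, 5 were lower and 0 higher in these alternatives, except that 6 were lower without the low-count filter and in DESeq2, which added Tead2. Lats2 did not pass in any of its 15 alternatives (0.07 to 0.76). Of all genes, 2409 were higher and 5849 lower with library size only, in place of 3927 and 3942, which made 29.2% of calls higher in place of 49.9%. Higher genes were 1 of the kinases with upper-quartile factors in place of 0. They were 1 of the junction genes and 2 of the target signature at an adjusted p of 0.01, in place of 3 and 4. They were 2 of the CCN and ankyrin genes without the low-count filter in place of 1 (1 to 2 over left-out libraries). Arhgef17 reached -0.0040 with library size only. The shift in the log2 ratio of Ccn1 to Ccn2, -0.19, ran from -1.16 to 0.93 over left-out libraries, and that of Ccn1 to Wwtr1 from -0.26 to 0.10. The cause of these differences was not tested. With the replicate number as a block (replicate block), 3854 genes were higher and 3858 lower, and the 5 members stayed lower. Libraries with the same number did not deviate together (r = -0.014, 0.014 and -0.0050), so the numbers were not taken as pairs. Depth limits Yap1, Tead2, Ccn2, Ajuba and Lats2, which had at most 32 counts in a group.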
